A study of Mus musculus with 2 samples.

Results

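Spleen T cells that carried transcripts of the T cell receptor delta chain and none of the alpha chain were examined in a single-cell RNA sequencing pool of allergic mice. The cells were chosen by their unique molecular identifiers (UMIs, each counted as 1 captured transcript). A cell was taken when it had at least 200 genes, at most 10% mitochondrial UMIs, at least 1 UMI of Cd3d, Cd3e or Cd3g, at least 1 of Trdc, and none of Trac, Ncr1, Cd79a, Ms4a1 or Lyz2. This left 51 of the 16325 cells that passed the filter on genes and mitochondrial UMIs, and of 16829 barcodes in all. They were compared with 1439 T cells that met the same criteria but had at least 1 Trac UMI and no Trdc UMI. Because the sets were selected on these genes, their levels are given as a description. The working label of the 51 cells was gamma-delta T cells, with Trdc, Zbtb16, Sox5 and Il17a as markers, and only part of the data bore this label out, so they are called Trdc+ Trac- T cells here and the comparison set Trac+ Trdc- T cells.

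All mice were wild-type C57BL/6, 8 weeks old, and had been sensitized to ovalbumin (OVA) on days 0 and 10. There were 3 conditions. A group was left untreated, a group received standard desensitization with OVA in PBS on days 20, 22 and 24 and OVA in alum on days 40 and 60, and a group received a DCIR-2 fusion protein carrying OVA on days 20, 22 and 24. By the methods of the study the mice were challenged with OVA before harvest. On day 80 the spleen cells of every group were stimulated for 3 h with PMA and ionomycin, which bypass the receptor, were sorted by CD11b, and were pooled, with CD11b+ and CD11b- cells at equal shares. No unstimulated cells were part of the pool. It was sequenced as 1 gene expression library with 1 hashtag library, and the labels do not tie the 4 hashtags to the 3 conditions. Hence there are no replicates, no condition is compared with another, and no test across samples could be made. Levels (CPM) are the UMIs of a gene summed over the cells of a set, times 1000000 and divided by all UMIs of the set, and shares are of cells with at least 1 UMI. Their 95% intervals (exact Poisson for levels, exact Clopper-Pearson for shares, exact conditional for ratios) cover counting error only and not the spread between mice.

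Gamma-delta T cells assemble their antigen receptor from a gamma and a delta chain and place it on the surface with the CD3 proteins, as alpha-beta T cells do with theirs. In the mouse, known subsets make interleukin-17 with the factors Sox4 and Sox13, make interferon-γ with T-bet and Eomes, or use PLZF, the product of Zbtb16, in an innate-like programme. The Trdc gene lies within the receptor alpha locus and is deleted on an allele whose alpha gene has been rearranged. Natural killer (NK) cells lack a rearranged receptor but are known to transcribe parts of the receptor loci.

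The 51 cells had a median of 8242 UMIs, between 2343 and 21963, and 2651 genes, close to the median of 8745 UMIs and 2514 genes in the Trac+ Trdc- T cells. They made up 3.42% of both sets of T cells together (95% interval 2.56 to 4.48). This is a share of a pool whose make-up was set by the sort, not of the spleen. Together they held 437900 UMIs, so that a gene without any UMI in them may still have had a level of up to 6.85 CPM, the floor set at 3 counts.

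Trdc, the constant gene of the delta chain (chr14:54142851-54148868, plus strand, GRCm38), had 230 UMIs in these cells, a level of 525 CPM. The count per cell was between 1 and 17 with a median of 3, and 15 of the 51 cells entered with exactly 1 UMI. Trdc was not restricted to cells with CD3 transcripts. Of 4051 cells with Ncr1 and no Cd3 UMI, here taken as NK cells, 22.2% had at least 1 Trdc UMI, at a level of 57.8 CPM, and 148 had at least 3. The median depth of these cells was 5393 UMIs. In 3608 B cells (median 8088.5 UMIs), taken by Cd79a or Ms4a1 without CD3, Ncr1 or Lyz2, the share was 1.14%.

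The gamma chain, which the rule did not use, set the cells apart more sharply but was seldom captured. A UMI of a constant gene (Tcrg-C1, Tcrg-C2 or Tcrg-C4) was seen in 9 of the 51 cells, or 17.6% (95% interval 8.40 to 30.9). The share was 1.32% in Trac+ Trdc- T cells, 0.222% in NK cells and 0.0277% in B cells. Tcrg-C2 (chr13:19304649-19307551, minus strand) had 9 UMIs in 7 cells, or 20.6 CPM (95% interval 9.40 to 39.0), against 0.894 CPM in Trac+ Trdc- T cells and no UMI in NK or B cells. Its ratio to the Trac+ Trdc- T cells was 23.0 (95% interval 8.67 to 58.1). Tcrg-C4 had 3 UMIs, Tcrg-C1 had 1 and Tcrg-C3 had none. The constant genes are similar in sequence, and how reads that fit several of them were divided could not be followed in counts.

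Among the variable and joining segments, which make up the antigen-binding part of the chains, Trgv2 had 7 UMIs in 6 cells, 16 CPM against 0.756 in Trac+ Trdc- T cells and 0.0380 in NK cells. Trdj1, a joining segment of the delta chain, had 13 UMIs in 9 cells, or 29.7 CPM. It had 1 UMI in all the Trac+ Trdc- T cells, and 4.30 CPM in NK cells. Trdv5 had 5 UMIs in 4 cells. In all, 21 of the 51 cells (41.2%) had at least 1 UMI of a receptor gamma or delta gene other than Trdc, against 5.42% of Trac+ Trdc- T cells and 13.7% of NK cells, so that for the other 30 cells Trdc was the sole transcript of this receptor seen.

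Among genes with a mean of at least 20 CPM over both sets, the highest ratio was that of Gm43434 (chr14:54128298-54146287, minus strand), annotated as antisense and overlapping Trdc by 3437 bases. It had 29 UMIs in 16 of the 51 cells, at most 3 in any of them. Gm43434 passed this filter through the 51 cells alone, which fixed the direction of its ratio. The level was 66.2 CPM (95% interval 44.4 to 95.1) against 1.31 in Trac+ Trdc- T cells and 17.0 in NK cells, a ratio of 50.7 to the former (95% interval 27.5 to 95.7). Whether the counting used strand is not given in the sources used here, so its reads cannot be told apart from reads of Trdc, the gene used for selection. Trdv5 overlaps the end of Trdc by 207 bases on the minus strand, and the same limit holds for it.

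Transcripts of the beta chain were common. Trbc1 or Trbc2 was found in 46 of the 51 cells, or 90.2%, against 94.0% of Trac+ Trdc- T cells, 71.0% of NK cells and 6.51% of B cells. Trbc1 was at 418 CPM against 573, and Trbc2 at 283 against 726, 2.56-fold lower (95% interval 2.15 to 3.08). These 2 genes are nearly identical in sequence and the division of reads between them is uncertain. Cd4, Cd8a and Cd8b1, the coreceptors of alpha-beta T cells, had no UMI in any of the 51 cells, while 49.3% of the Trac+ Trdc- T cells had at least 1. The level of Cd8b1 was at least 12.8-fold lower, that of Cd8a at least 5.04-fold lower and that of Cd4 at least 3.92-fold lower.

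Before the programmes are described, the heterogeneity of the 51 cells has to be stated, since NK-cell genes moved with it. Of 7 NK-cell genes (Klre1, Klrb1c, Klra4, Klra7, Klra8, Eomes and Itga2, receptors, a transcription factor and an integrin), 20 cells had UMIs of at least 2, and 31 had fewer. The same was true of 93.7% of NK cells, 10.2% of Trac+ Trdc- T cells and 3.88% of B cells. This split was made after the values had been seen and is used only to describe. The 20 cells had a Trdc level of 314 CPM and the 31 cells 671 CPM. At least 3 Trdc UMIs were found in 6 of the 20 and 22 of the 31 cells. All of the CD3 genes that served in the selection were lower in the 20 cells, for example Cd3e, the epsilon chain, at 33.6 against 143 CPM. A Tcrg constant gene was found in 4 of the 20 and 5 of the 31 cells. Median depth was 8782 and 7460 UMIs.

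**Figure D1:**
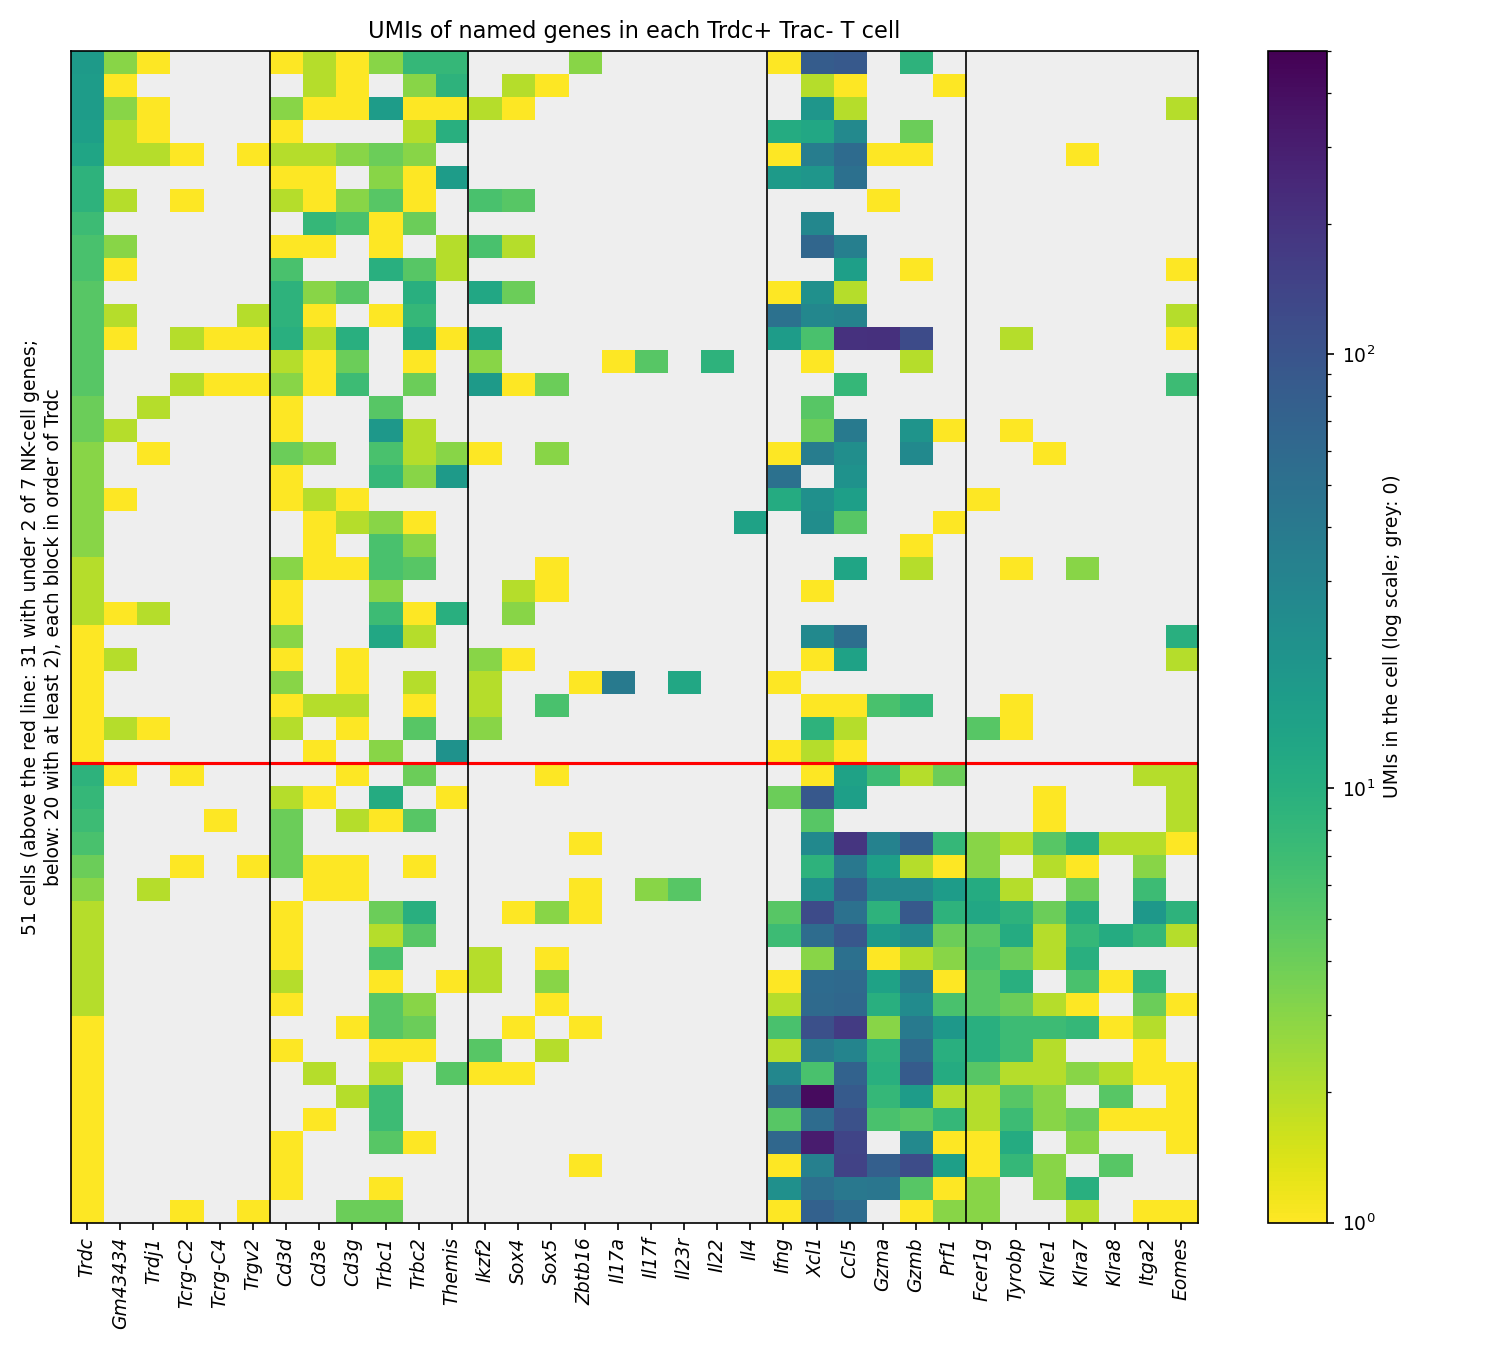
UMIs of named genes (columns; colour on a log scale, grey for 0) in each of the 51 Trdc+ Trac- T cells (rows), with the 31 cells with under 2 of 7 NK-cell genes above the red line and the 20 others below, each block in order of Trdc. In the upper block 29 of the 31 cells had no Fcer1g, among them cells high and low in Trdc. Each of Fcer1g, Tyrobp, Gzma, Gzmb and Prf1 was seen in most of the 20 cells of the lower block, and Il17a was seen in 2 cells.

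NK-cell genes were also set against the Trac+ Trdc- T cells as a list. Of 5821 genes with a mean of at least 20 CPM over the 2 sets, the genes of the rule left out, 307 were at least 2-fold higher in the Trdc+ Trac- T cells (5.27%) and 203 at least 2-fold lower (3.49%). A gene below 20 CPM in one set passed through its level in the other alone, which fixed the direction of its ratio. The median ratio of all these genes was 1.10, a shift of 0.14 on the log2 scale, and after division of every ratio by this median 209 were higher and 248 lower. Of the 12 genes of the NK-cell list 10 passed the filter, and these were at least 2-fold higher. Klra8, Klra3 and Klri2 were below 20 CPM in Trac+ Trdc- T cells and passed through their level in the 51 cells, so that this count was partly fixed by the filter. The list summed to 2243 CPM against 472, with Gzma as the most abundant gene in both sets, and its defining gene Ncr1 was at 0 in both by the rule. In the 31 cells the list was not counted, since most of the genes of the split are on it.

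The adaptor Fcer1g, which can pair with NK-cell receptors and with the T cell receptor complex, was at 212 CPM in the 51 cells against 31.8 in Trac+ Trdc- T cells, a ratio of 6.67 (95% interval 5.28 to 8.35). Within the 51 cells it was at 488 CPM in the 20 cells with NK-cell genes and 23.1 CPM in the 31 others. Tyrobp, the adaptor DAP12, was at 499 CPM in the 20 cells and 23.1 CPM in the 31, against 26.4 in Trac+ Trdc- T cells and 627 in NK cells. The level of both adaptors in the 31 cells was thus no higher than in Trac+ Trdc- T cells. Fcer1g was found in 37.3% of the 51 cells (11.8% after each cell was thinned to 1000 UMIs), in 10.8% of Trac+ Trdc- T cells (2.92% thinned), in 91.4% of NK cells and in 12.0% of B cells, which should lack it.

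Among other named genes, some were higher in the 31 cells and others were not. Themis, a regulator of receptor signalling in thymocytes and T cells, was at 385 CPM in the 31 cells and 39.2 CPM in the 20, against 1137 in Trac+ Trdc- T cells and 13.6 in NK cells. It was spread unevenly, with at least 5 UMIs in 8 of the 51 cells (7 of them among the 31) and none in 36. None of these 8 cells had a Tcrg constant UMI. Cd28, the costimulatory receptor, was at 131 and 16.8 CPM, and Ikzf2, the factor Helios, at 274 and 56.0 CPM. The level of Ikzf2 in the 31 cells was close to the 322 CPM of Trac+ Trdc- T cells (ratio 0.849, 95% interval 0.662 to 1.07). Lck, the kinase that starts receptor signalling, was at 50.1 CPM in the 31 cells and 50.4 in the 20, and Zap70, the kinase that follows it, at 119 and 95.3.

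**Figure D2:**
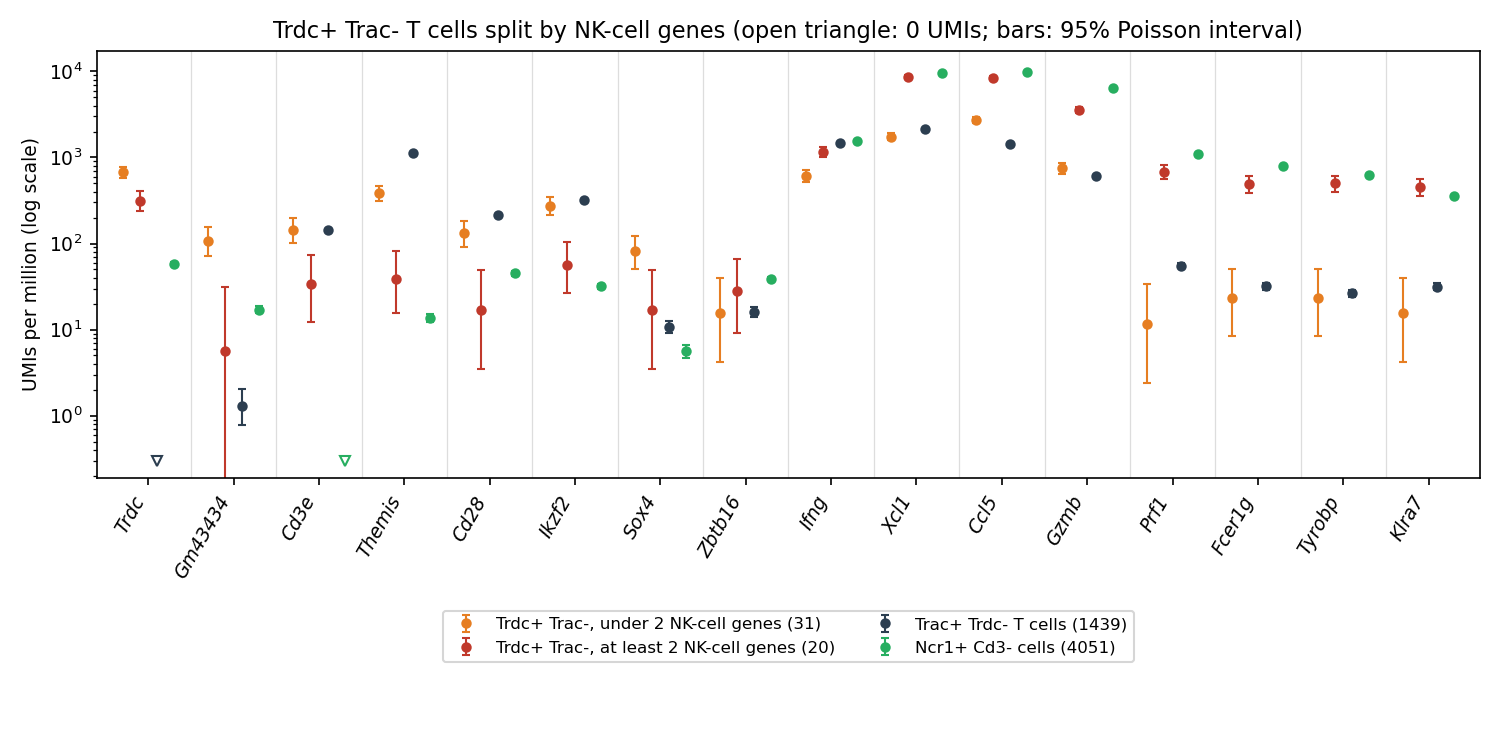
Level (CPM, log axis) of named genes in the 31 Trdc+ Trac- T cells with under 2 NK-cell genes, the 20 with at least 2, the 1439 Trac+ Trdc- T cells and the 4051 NK cells; points are summed levels, bars 95% Poisson intervals, open triangles 0 UMIs. For Prf1, Fcer1g and Tyrobp the 20 cells lie near the NK cells and the 31 cells at or below the Trac+ Trdc- T cells, and for Themis and Ikzf2 the 31 cells lie nearer to the Trac+ Trdc- T cells. Klra7 is among the genes of the split, which fixes its difference.

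The IL-17 programme was carried by very few cells. Only 3 of the 51 cells (5.88%, 95% interval 1.23 to 16.2) had a UMI of Il17a or Il17f, against 1.95% of Trac+ Trdc- T cells, 0.197% of NK cells and 0.582% of B cells. After thinning to 1000 UMIs, 1 of the 51 cells (1.96%) still had one. The level of Il17a (chr1:20730905-20734496, plus strand), the cytokine interleukin-17A, was 91.3 CPM (95% interval 65.3 to 124) against 47.8, but 39 of its 40 UMIs lay in 1 cell. Without this cell the level was 2.32 CPM. The same cell held 12 of the 17 UMIs of Il23r, the receptor chain through which interleukin-23 acts, along with 1 UMI each of Trdc, Zbtb16 and Ifng, and none of the 7 NK-cell genes.

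The second cell, which was the sole one of hashtag 9, had 1 UMI of Il17a, 5 of Il17f and all 9 UMIs of Il22 found in the set, with 5 UMIs of Trdc. The third had 3 UMIs of Il17f, 5 of Il23r, 3 of Trdc and 3 of the 7 NK-cell genes. None of the 3 cells had a Tcrg constant UMI. Il22, another cytokine of this programme, was at 20.6 CPM against 2.34, on the strength of that second cell alone.

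Other genes of the IL-17 list ranged widely in counts. Batf, a factor needed for helper cells that make interleukin-17, was its most abundant gene, at 242 CPM against 207 (ratio 1.17, 95% interval 0.956 to 1.42), and Rora was at 93.6 CPM against 161. Sox13 had 1 UMI and Cd163l1 had none. Sox4 was at 54.8 CPM in 12 cells against 10.8 in Trac+ Trdc- T cells, a ratio of 5.08 (95% interval 3.16 to 7.83), and at 80.9 CPM in the 31 cells with few NK-cell genes. NK cells had 5.59 CPM and B cells 3.62. Its 24 UMIs were spread, with at most 5 in a cell, yet none remained after thinning. Sox5 (chr6:143828425-144781977, minus strand) was at 61.7 CPM against 22.8, a ratio of 2.70 (95% interval 1.75 to 4.0), but at 101 CPM in NK cells and 178 CPM in B cells, so it did not mark the set. Of the 28 genes of the IL-17 list, 12 passed the filter, of which 3 were at least 2-fold higher (Il23r, Sox5 and Sox4) and 2 at least 2-fold lower (Maf and S100a4). Il23r and Sox4 passed through the 51 cells alone and Maf through the Trac+ Trdc- T cells alone. The shares over all genes were 5.27% and 3.49%, and the median ratio of 1.09 was near that of all genes. In the 31 cells with few NK-cell genes 4 were higher and 6 lower, with a median of 0.586, beside 5.50% and 4.32% of all genes and a median of 1.10. Il23r and Sox4 passed through the 31 cells alone there, and Il18r1 and Maf through the Trac+ Trdc- T cells alone. Nearly all UMIs of Il17a and all of Il23r in the 31 cells lay in the same cell.

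Zbtb16 (chr9:48654297-48836222, minus strand) had 9 UMIs in 7 cells, 20.6 CPM (95% interval 9.40 to 39.0), against 16.1 in Trac+ Trdc- T cells and 38.6 in NK cells. The ratio to the Trac+ Trdc- T cells was 1.28 (95% interval 0.577 to 2.47), so a difference was not detectable at this depth. Of its 7 cells 5 were among the 20 with NK-cell genes. Il4, which innate-like T cells can release, had 14 UMIs, all in 1 cell with 3 Trdc UMIs and no NK-cell gene, and Il13 had none. Of the 19 genes of the PLZF list, 15 passed the filter, 1 at least 2-fold higher (Plac8, at 70.8 against 22.5 CPM) and 5 at least 2-fold lower (Il13, Gata3, Icos, Cd40lg and Slamf6), with a median ratio of 0.574, beside 5.27% and 3.49% of all genes and a median of 1.10. Il13 and Slamf6 passed through the Trac+ Trdc- T cells alone. For the 31 cells, 2 were higher (Plac8 and Il4) and 4 lower, with a median of 0.844. The shares over all genes there were 5.50% and 4.32%, with a median of 1.10. Of the lower genes, Il13, Gata3 and Slamf6 passed through the Trac+ Trdc- T cells alone, which fixed their direction.

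**Figure D3:**
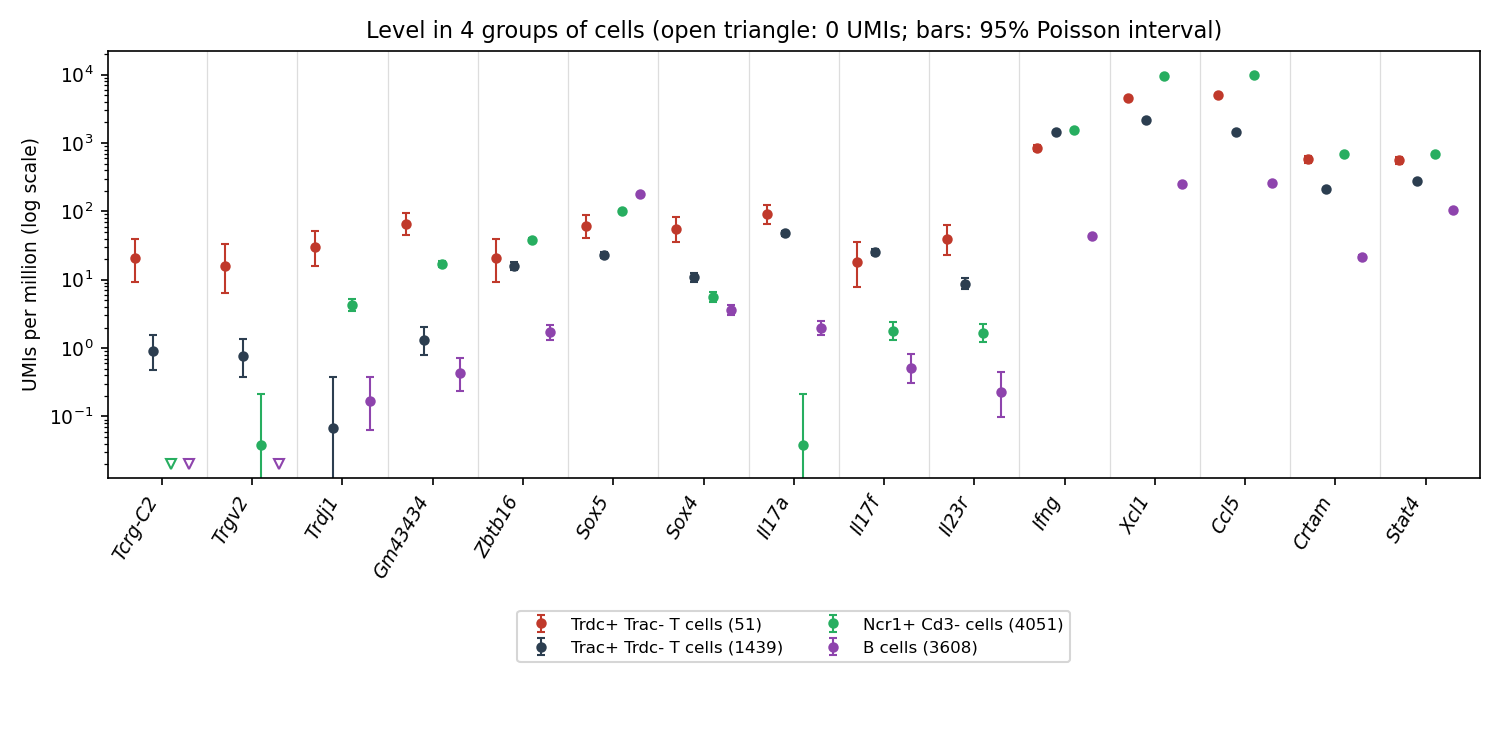
Level (CPM, log axis) of receptor genes, label markers and cytokine genes in the 51 Trdc+ Trac- T cells, 1439 Trac+ Trdc- T cells, 4051 NK cells and 3608 B cells; points are summed levels, bars 95% Poisson intervals, open triangles 0 UMIs. Tcrg-C2 and Trgv2 are highest in the Trdc+ Trac- T cells, Zbtb16 and Sox5 are higher in NK cells, and Xcl1 and Ccl5 lie between the Trac+ Trdc- T cells and the NK cells.

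Among the gene lists, that of the interferon-γ and cytotoxic programme had the highest summed level in the 51 cells, at 28420 CPM. It was also the highest in Trac+ Trdc- T cells, at 15491.5 CPM, and the 31 cells were near these at 16913 CPM. Ccl4 was its most abundant gene in each of these sets. Ifng, the gene of interferon-γ, was found in 26 of them (51.0%, 95% interval 36.6 to 65.2, and 29.4% after thinning) and in 39.6% of Trac+ Trdc- T cells (21.6% thinned), with 8.12% in B cells as background. Its level ran the other way, at 836 CPM (95% interval 752 to 926) against 1454. UMIs per cell were between 0 and 63 with a median of 1, and without the richest cell the level was 706 CPM. Ifng was found in 14 of the 20 cells with NK-cell genes and 12 of the 31 others, at 1160 and 613 CPM. In the 20 cells 1 cell held 63 of the 207 UMIs and another held 60. In the 31 cells 1 cell held 49 of the 159 UMIs and another also held 49.

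The chemokines were higher in level. Xcl1, which attracts cross-presenting dendritic cells, was at 4567 CPM against 2144, a ratio of 2.13 (95% interval 2.03 to 2.23). The count per cell was between 0 and 419 with a median of 19. Nearly all of the excess lay in the 20 cells, with 8686 CPM, while the 31 cells had 1734 CPM, below the Trac+ Trdc- T cells. Of the 1550 UMIs in the 20 cells, 1 cell held 419 and another held 313. The level of the 20 cells thus rested in part on these cells, which the interval of the ratio does not cover. Ccl5, a chemokine stored by memory and cytotoxic cells, was at 5051 CPM against 1434, a ratio of 3.52 (95% interval 3.37 to 3.68), and here the 31 cells were also higher, at 2740 CPM. Of their 711 UMIs, 206 lay in 1 cell.

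The granule genes separated the blocks further. Prf1, the pore-forming perforin, was at 678 CPM in the 20 cells and 11.6 CPM in the 31, against 55.5 in Trac+ Trdc- T cells, so that the ratio of 5.10 for all 51 cells turned to 0.208 (95% interval 0.0429 to 0.611) in the 31. Gzmb, granzyme B, was at 3564 and 752 CPM, against 616, but 121 of the 195 UMIs of the 31 cells lay in 1 cell, without which their level was 301 CPM. Gzma, granzyme A, was at 1156 CPM in all 51 cells against 250, but 209 of its 506 UMIs lay in that same cell, also the one richest in Ccl5, which held nearly all of the 217 in the 31 cells. This cell also had 5 Trdc UMIs, 2 of Tcrg-C2, 1 of Tcrg-C4, 3 of Tcrg-V7 and 16 of Ifng, and 1 of the 7 NK-cell genes.

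Other members of the programme were higher in both blocks. Klrk1, the receptor NKG2D, was at 594 CPM in the 20 cells and 235 in the 31, against 77.9, Klrc1 (NKG2A) at 207 and 146 against 34.5, and Klrc2 (NKG2C) at 112 and 77.1 against 18.0. Klrc1 and Klrc2 are close relatives in sequence. Eomes, a T-box factor of cytotoxic cells, was at 134 and 96.4 CPM against 32.5, although it is among the genes of the split. Crtam was at 835 and 393 CPM against 210, and Stat4, which relays interleukin-12, at 628 and 505 against 277. Of the 27 genes of the list, 26 passed the filter, 13 at least 2-fold higher and 3 lower (Cxcr3, Cd160 and Tnf), with a median ratio of 1.98. For all genes the shares were 5.27% and 3.49%, with a median of 1.10. Klrc2 passed through the 51 cells alone and Cxcr3 through the Trac+ Trdc- T cells alone. In the 31 cells 6 were higher and 5 lower, with a median of 1.09, beside 5.50% of 5743 genes higher and 4.32% lower, and a median of 1.10 over all genes. Among the lower, Cxcr3, Prf1, Fasl and Ly6c2 passed through the Trac+ Trdc- T cells alone, which fixed their direction. Among the higher, Klrc2 passed through the 31 cells alone, Gzma had nearly all of its UMIs in 1 cell, and Eomes belongs to the split.

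**Figure D4:**
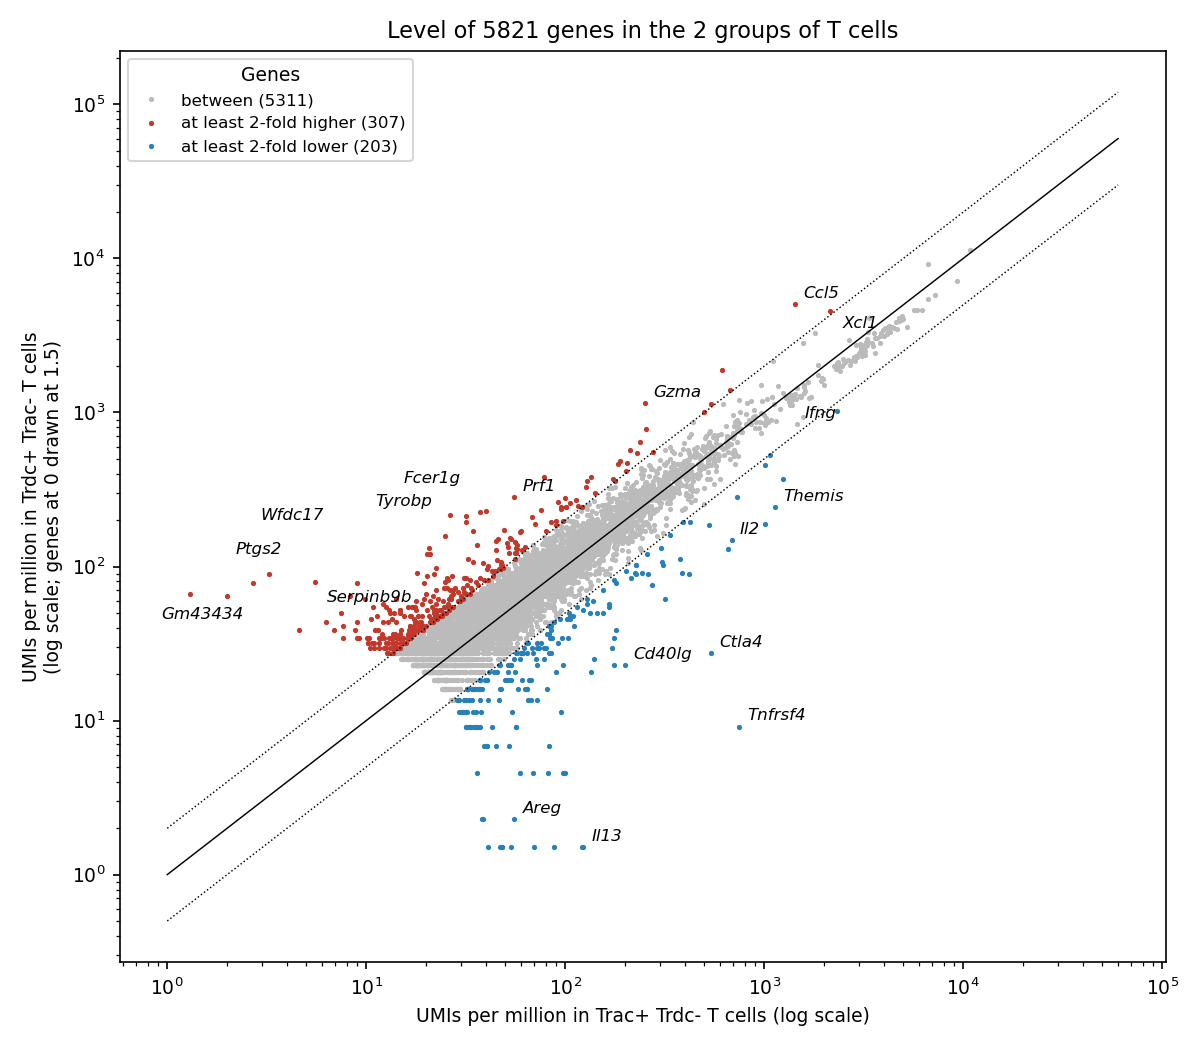
Level (CPM) of 5821 genes in the 51 Trdc+ Trac- T cells against the 1439 Trac+ Trdc- T cells on log axes, with lines at equal level and at 2-fold. Higher genes (307) include Gm43434, Tyrobp and Prf1, and lower genes (203) include Tnfrsf4, Ctla4, Themis and Il13, which had no UMI in the 51 cells.

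The 10 lowest ratios were those of Il13, Nrp1, Cd8b1, Il5, Il10, Tshz2, Nrn1, Foxp3 and Il21, all with no UMI in the 51 cells, and Tnfrsf4. The 9 genes without a UMI, and also Tnfrsf4 at 9.13 CPM, passed the filter through the Trac+ Trdc- T cells alone. The direction of their ratios was thus fixed by the filter. Il13, a type 2 cytokine, was at least 18.0-fold lower, Nrp1 at least 17.8-fold and Il5 at least 10.2-fold. The level of Il10, the anti-inflammatory cytokine that was the subject of the study, was 53.3 CPM in Trac+ Trdc- T cells and at least 7.78-fold lower in the 51 cells. Foxp3, the factor of regulatory T cells, was at least 6.86-fold lower, and Il21, a cytokine of follicular helper cells, at least 5.98-fold.

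Tnfrsf4, the costimulatory receptor OX40, had 4 UMIs in the 51 cells, 9.13 CPM against 747, which is 81.7-fold lower (95% interval 31.9 to 300.0). Ctla4, an inhibitory receptor, had 12 UMIs in 6 cells, 27.4 CPM against 542, or 19.8-fold lower (95% interval 11.3 to 38.3). Areg, a growth factor, had 1 UMI. Il2 was 4.62-fold lower (95% interval 3.62 to 5.99) and found in 6 cells, Cd40lg 8.71-fold and Tnfsf11 (RANKL) 7.70-fold lower. In the 31 cells with few NK-cell genes Ctla4 was at 38.5 CPM, Il2 at 197 and Tnfrsf4 at 7.71, all below the Trac+ Trdc- T cells. Of the 23 cytokine genes, 15 passed the filter, none at least 2-fold higher and 8 lower, beside 5.27% and 3.49% of all genes. Of these 8, Il13, Il5, Il10, Il21 and Areg passed through the Trac+ Trdc- T cells alone, so that their being lower was fixed by the filter. In the 31 cells 8 were lower and 2 higher, Il4 and Il17a, each with all or nearly all of its UMIs in 1 cell. Of all genes there, 4.32% were lower and 5.50% higher. Il13, Il5, Il10, Il21 and Areg again passed through the Trac+ Trdc- T cells alone.

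Receptor-proximal genes were counted as a list. Of the 19 genes of the receptor and CD3 complex, 4 of them used by the rule, 11 passed the filter, of which 6 were at least 2-fold lower (Lat, Themis, Cd2, Cd5, Cd6 and Cd28) and 1 higher (Fcer1g), with a median ratio of 0.394, beside 3.49% of all genes lower, 5.27% higher and a median of 1.10. For the 31 cells 5 were lower and 1 was higher (Trat1, with a ratio of 2.70), with a median of 0.538. Of all genes there, 4.32% were lower and 5.50% higher, with a median of 1.10. Cd28 (ratio 0.612) and Fcer1g (0.726) were within 2-fold in the 31 cells. Trat1, a small adaptor of the receptor, was at 137 CPM against 68.6, just short of 2-fold, and at 2.36 in NK cells. In Trat1, 23 of the 60 UMIs came from 1 cell. Lat, the linker through which the receptor signals, was at 29.7 CPM against 172.

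All 20 early activation genes passed the filter, none at least 2-fold higher and 2 lower (Fos and Spry1), with a median ratio of 1.00. Over all genes 5.27% were higher and 3.49% lower, with a median of 1.10, and these values stand beside the next lists too. Cd69, the early activation antigen, was at 820 CPM against 706 and found in 48 of the 51 cells. Of the 12 genes of naive and recirculating T cells 8 passed, with Bcl2, which protects from apoptosis, alone at least 2-fold higher (464 against 185 CPM). Of 9 checkpoint receptors 6 passed, 1 higher (Cd244a, 61.7 against 14.2 CPM) and 3 lower (Ctla4, Btla and Tigit), but Cd244a passed through the 51 cells alone and Tigit through the Trac+ Trdc- T cells alone. The cell cycle genes were low, and 5 of 10, Mki67 and Cdk1 among them, had no UMI. Hmgb2 alone passed the filter, at 128 against 242 CPM.

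Markers of other cells were measured alongside. The B cell list summed to 1153 CPM against 725, with Cd74 as its most abundant gene at 633 CPM, of which 133 of 277 UMIs lay in 1 cell. Its genes Cd79b, Cd79a and Ms4a1 were at 0, the latter 2 by the rule, Igkc was at 100.5 CPM against 80.04, and none of the 5 that passed the filter was at least 2-fold higher. Of the 8 myeloid markers 2 passed, neither at least 2-fold different, and Csf1r, Spi1, Adgre1 and Lyz2 were at 0, the last by the rule. The myeloid list summed to 73.1 CPM against 119. Among 8 markers of innate lymphoid cells 5 passed, none higher and 4 lower (Gata3, Areg, Il5 and Il13), with a median ratio of 0.0412. Of these, Areg, Il5 and Il13 passed through the Trac+ Trdc- T cells alone, and Gata3 was at 27.4 CPM against 82.5. Scrublet, which scores likeness to simulated doublets, marked 10 of the 51 cells (19.6%), 5.56% of Trac+ Trdc- T cells and 8.18% of all cells. The marked cells were 4 of the 20 and 6 of the 31. With the marked cells left out of both sets, 41 cells remained, Il17a was at 123, Zbtb16 at 28.3 and Ifng at 844 CPM, and 415 genes were at least 2-fold higher and 254 lower. The part of free RNA in the levels was not tested.

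Of the other genes with the 10 highest ratios, several rested on a handful of cells. All 39 UMIs of Wfdc17 lay in 1 cell, the 34 of Ptgs2 (cyclooxygenase-2) in 2 cells and the 28 of 2610307P16Rik in 3 cells. The 17 UMIs of Cpq came from 3 cells. Serpinb9b, a serpin of the granzyme-inhibitor family, was at 79.9 CPM in 5 cells against 5.50, and Klra8 (Ly49H) at 63.9 CPM in 8 cells against 8.32. Lrmda was at 77.6 CPM in 9 cells against 9.01, and Adamts14 at 43.4 CPM in 11 cells against 6.26. In NK cells Serpinb9b was at 217, Klra8 at 238 and Adamts14 at 170 CPM.

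In the 31 cells with few NK-cell genes the highest ratios after Trdj1, Gm43434, 2610307P16Rik, Ptgs2, Astl and Cpq belonged to St6galnac3, a sialyltransferase, and Trerf1. St6galnac3 was at 362 CPM against 39.8, a ratio of 9.10 (95% interval 7.24 to 11.3), and Trerf1 at 335 CPM against 37.3, a ratio of 9.0 (95% interval 7.09 to 11.3). In NK cells they were at 47.2 and 12.5 CPM. The genes ranked ahead of St6galnac3 were below 20 CPM in Trac+ Trdc- T cells. They passed the filter through the 31 cells alone, which fixed the direction of their ratios. Over all 51 cells St6galnac3 was found in 14 cells, with at most 32 of 100 UMIs in a cell, and Trerf1 in 8 cells, with at most 34 of 99. Of the 307 genes higher in all 51 cells, 146 (47.6%) were also higher in the 31, where they made up 46.2% of 316. Of the 203 lower genes, 147 (72.4%) were also lower in the 31, where they made up 59.3% of 248. The 31 cells are part of the 51, so some overlap was built in.

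Cells just inside and just outside the thresholds are described next, without a test. The 15 cells with 1 Trdc UMI had 122 CPM of Trdc, 342 of Fcer1g and at least 2 NK-cell genes in 9 cells. The 28 cells with at least 3 Trdc UMIs had 805 CPM of Trdc, 72.8 of Fcer1g, and at least 2 NK-cell genes in 6 cells, and a Tcrg constant gene was found in 7 of them. The cell with most Il17a entered with 1 Trdc UMI. A Tcrg constant gene was found in 1 of the 19 cells with 1 CD3 UMI and 8 of the 32 with more. No cell had over 10 and at most 15% mitochondrial UMIs and was otherwise alike. Outside the rule, 297 cells had no Trdc and no Trac UMI but were otherwise alike, and 1 of them had a Tcrg constant UMI.

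A further 92 cells had both Trdc and Trac, 22 of them with 1 Trac UMI. They had 419 CPM of Trdc and 285 of Trac, a Tcrg constant gene in 11 cells (12.0%) and at least 2 NK-cell genes in 41 (44.6%). By these measures they were near the 51 cells, and 17 of the 92 (18.5%) had a coreceptor UMI. There were 28 cells with Ncr1, CD3 and Trdc but no Trac, 26 of them with at least 2 NK-cell genes, and 353 cells with Trdc but no CD3, Trac or Ncr1, 92.9% of them with at least 2 NK-cell genes and 1 with a Tcrg constant gene.

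By hashtag, 38 of the 51 cells could be assigned and 13 could not. Of the 1439 Trac+ Trdc- T cells 178 could not be assigned, and 60.9% of all cells past the filter could. Hashtag 9 held 1 cell, hashtag 10 held 14, hashtag 11 held 13 and hashtag 12 held 10. They made up 0.719% of both sets of T cells for hashtag 9 (95% interval 0.0182 to 3.94), 3.22% for hashtag 10 (1.77 to 5.34), 3.39% for hashtag 11 (1.82 to 5.73) and 2.92% for hashtag 12 (1.41 to 5.31). The intervals overlap. Trdc was at 598, 665 and 586 CPM in the cells of hashtags 10, 11 and 12. Ifng was at 214, 1150 and 1215 CPM, and Xcl1 at 2982, 5580 and 2345 CPM. Most of the Xcl1 UMIs of hashtag 11 (419) lay in 1 cell, which also had 60 of Ifng. Another cell of hashtag 11 and 1 cell of hashtag 12 had 49 UMIs of Ifng each. Hence the order of the hashtags in these 2 genes is not read as a difference. Cells with at least 2 NK-cell genes numbered 4, 3 and 3, with none in hashtag 9 and 10 of the 13 unassigned cells.

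Cells in which Il17a or Il17f was found were also set against the 25 with Ifng and neither of these. The 3 cells held 27533 UMIs, in which 3 counts correspond to 109 CPM, and the genes at both ends of the ranking were at 0 in either set and tied. Hence no gene is named from this comparison.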

How the data were processed

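The authors deposited UMI counts per gene and hashtag for each barcode, made with Cell Ranger on GRCm38 (version 7.2.0 in the processing notes of the submitters and 7.0.0 in the header of the matrix), without normalization. The counts were used as deposited. Cells were selected on the thresholds given above, with rule genes left out of all counts of genes, and UMIs were summed per set. Annotation was GENCODE vM21, and all 241 named genes matched by ID. With 1 pool there was no count test. A gene was called at a ratio of at least 2 or at most 0.5 among genes with a mean of at least 20 CPM, and named if it was a marker, a receptor gene with at least 5 UMIs, a list member or among the 10 highest or lowest ratios. The same ranking between cells with Il17a or Il17f and with Ifng was part of the rule but gave only ties, so no gene was named from it. Genes of the 31-cell comparison were named after their values were seen. A hashtag was assigned if its count over its median was at least 2 times the next. For shares, cells were thinned to 1000 UMIs, which left out none of the 51 cells, 1 Trac+ Trdc- T cell, 29 NK cells and 6 B cells. The intervals and ratio calls were tested on simulated counts, drawn for the sum of a set without variation between cells. That test does not cover genes whose UMIs lay in few cells. Python 3.11.15, NumPy 2.4.6, SciPy 1.17.1, scanpy 1.11.5 (Scrublet, expected rate 0.1) and matplotlib 3.10.9 were used. The cells, lists and rules were chosen with earlier results of these data known. The separate barcode, gene-name and hashtag files were used for names only, and reads were not analysed here.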

Additional observations from a re-analysis of the deposited data

How the results depend on the processing

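Of 101 recomputed values, 64 stayed within the counting interval of the reported value or, for counts of genes, within 1.5 times. The others follow, as CPM for levels. With at least 2 Trdc UMIs, 36 cells remained, with Il17a at 3.17 and Ifng at 558. With a Tcrg constant UMI required, 9 cells remained, the share with Il17a or Il17f, the Il17a level and the Zbtb16 level were 0, Ifng was at 269, and 1450 genes were at least 2-fold higher and 681 lower. Without any Trbc1 or Trbc2 UMI, 5 cells remained, with a share of 20%, Il17a at 0, Zbtb16 at 83.3, Ifng at 333, and 1443 genes higher and 924 lower. Without Klre1 and Klrb1c, 34 cells remained, with Il17a at 143. After thinning to 1000 UMIs, Zbtb16 was at 0, Ifng at 725, and 1227 genes were higher and 574 lower. Without the cells of hashtag 10, which hold the cell rich in Il17a, Il17a was at 3.07 and Ifng at 1049, and without those of hashtag 11 Ifng was at 736. As a mean over cells, Il17a was at 124 and Ifng at 734. Without the richest cell, they were at 2.32 and 706. With a filter at 50 CPM, 109 genes were higher and 86 lower, and at 5 CPM 859 and 612. Leaving out the cells with at least 2 of the 7 NK-cell genes, an alternative chosen after the data were seen, left 31 cells, with Il17a at 154 and Ifng at 613. The cause was not tested.

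No paired analysis was possible because all cells come from 1 pool without replicates. Capture limits every statement about low genes, since 3 UMIs in the 51 cells correspond to 6.85 CPM, and a cell without a Trac or Tcrg UMI may still have carried the transcript.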

Other observations

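The NK cells with Trdc transcripts were measured beside the T cells. The 899 NK cells with at least 1 Trdc UMI had 217 CPM of Trdc, 656 CPM of Fcer1g and 584 CPM of Tyrobp, and 96.4% of them had at least 2 of the 7 NK-cell genes. Only 1 of them had a Tcrg constant UMI. Gm43434, which overlaps Trdc on the other strand, was found in 351 of the 4051 NK cells and Trdj1 in 94.

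Of the 92 T cells with both Trdc and Trac, 60 had Ifng (65.2%, 95% interval 54.6 to 74.9) and 36 had at least 5 UMIs of Themis (39.1%, 95% interval 29.1 to 49.9), against 49.1% of Trac+ Trdc- T cells and 15.7% of the 51 Trdc+ Trac- T cells for Themis. A UMI of Fcer1g or Tyrobp was found in 38.0% of the 92. Scrublet marked 19 of them, or 20.7%.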
